A study of Homo sapiens with 4 samples.

Results

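Hypoxia response and glycolysis genes were examined in SH-SY5Y cells, a human neuroblastoma line, after silencing of TSPAN8, which encodes the cell-surface protein tetraspanin 8. The group was defined by name as 38 genes of oxygen sensing, hypoxia-induced targets, glucose and lactate transport, glycolysis and its regulatory kinases. A gene counted as measured when at least 1 probe set carried its symbol alone in the platform annotation, which gave 36 of the 38, represented by 87 probe sets, among 19775 measured genes in all. CA9 and SLC16A3 were not analysed here, and 2 probe sets that SLC2A3 shares with SLC2A14 were left out.

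The series holds 4 arrays, 2 from TSPAN8 knockdown and 2 from transfection control samples, each read after 72 h of treatment. Per the labels, small interfering RNA was delivered with the Accell system, cells grew in DMEM/F12 medium with serum, and no oxygen setting is named. What the control cells received and which small interfering RNA was used are not given in the sources used here. Separate cultures are not stated for arrays of the same group, so the p-values measure the spread between these arrays, which may be technical.

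Cells sense oxygen through prolyl hydroxylases, which mark the alpha subunits of hypoxia-inducible factor (HIF) for destruction when oxygen is present. When oxygen falls, HIF1A or EPAS1 pairs with ARNT on a short DNA core in target promoters. The pair switches on glucose transporters, glycolytic enzymes and kinases that steer pyruvate away from oxidation in mitochondria. Glycolysis then splits glucose into pyruvate, which the lactate dehydrogenases turn into lactate. Neuroblastoma cells, like many tumour lines, run glycolysis actively also with oxygen at hand.

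The promoters of several members carry that core more than once, and 4 of them are printed to show the arrangement. ACGTG and GCGTG were searched on both strands (CACGT and CACGC on the strand shown) from 250 bases before to 50 after each RefSeq start (GRCh38.p14), and overlapping matches were counted once. A core was present in 40 of 61 promoters of the 34 listed genes that have an entry (65.6%). Of all 35116 promoters in the table, 48.4% carried a core. At least 3 cores were present in 13.1% against 7.54%. Windows of the same gene can overlap, and the 34 genes include CA9 and SLC16A3. Hypoxia-induced genes were put in the list by name, so a higher share of cores is no result of these arrays. The sequences below are the 250 bases before the start, 5′ to 3′ on the strand of the gene, with the cores in capitals. They belong to the members with the most cores whose window lies outside the annotated gene. BNIP3 lies at chr10:131981924-131982173 on the minus strand, ALDOC at chr17:28576896-28577145 on the minus strand, LDHA at chr11:18394313-18394562 on the plus strand and PGK1 at chrX:78103998-78104247 on the plus strand.
BNIP3: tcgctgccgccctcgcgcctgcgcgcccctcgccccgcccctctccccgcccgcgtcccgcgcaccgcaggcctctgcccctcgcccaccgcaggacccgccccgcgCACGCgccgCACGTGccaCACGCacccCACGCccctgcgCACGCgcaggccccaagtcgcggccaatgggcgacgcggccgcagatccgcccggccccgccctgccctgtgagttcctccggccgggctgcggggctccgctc
ALDOC: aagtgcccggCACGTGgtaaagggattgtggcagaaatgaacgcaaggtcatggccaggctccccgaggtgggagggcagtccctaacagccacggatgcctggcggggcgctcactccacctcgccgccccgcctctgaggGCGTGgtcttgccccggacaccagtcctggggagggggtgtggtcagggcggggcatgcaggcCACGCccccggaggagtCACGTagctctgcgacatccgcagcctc
LDHA: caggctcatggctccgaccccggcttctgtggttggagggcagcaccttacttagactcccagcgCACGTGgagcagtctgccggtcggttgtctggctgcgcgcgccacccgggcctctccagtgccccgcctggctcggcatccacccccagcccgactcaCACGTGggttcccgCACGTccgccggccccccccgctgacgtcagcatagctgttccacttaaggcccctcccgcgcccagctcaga
PGK1: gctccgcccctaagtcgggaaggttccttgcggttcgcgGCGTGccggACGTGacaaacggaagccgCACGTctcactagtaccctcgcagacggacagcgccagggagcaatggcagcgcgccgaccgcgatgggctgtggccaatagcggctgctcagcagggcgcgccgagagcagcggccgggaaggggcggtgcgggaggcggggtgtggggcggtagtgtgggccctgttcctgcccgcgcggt
BNIP3 had 5 cores in 1 cluster that starts at position -143 and whose last core starts at -104. ALDOC had 4 cores, spread from -240 to -28. LDHA and PGK1 each had 3 cores in the stretch shown and 1 after the start. A match is a run of letters and no evidence that a factor binds there in these cells.

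TSPAN8, the targeted gene, had log2 levels of 6.25 and 6.35 on the knockdown arrays against 7.52 and 7.62 on the control arrays. It fell by a log2 difference of -1.27 ± 0.062 (SE; limma, adjusted p = 0.0026). It was the only one of 54613 probe sets to pass an adjusted p of 0.05, which is 0.00183% of those tested. Array medians ran from 6.58 to 6.61 and values from 5.30 to 14.6. Of the noradrenergic neuroblastoma markers measured, GATA3, ISL1 and STMN2 had mean control levels of 12.82, 12.98 and 13.19. HAND2 stood at 7.66, and the catecholamine enzyme TH was low, at 5.96. Mesenchymal and fibroblast markers also ranged widely in control cells, from 6.17 for PRRX1 to 13.42 for VIM.

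No member changed after TSPAN8 silencing by the test across all probe sets: 0 of 36 passed, and the smallest adjusted p was 0.60 (limma). At an unadjusted p under 0.05 the members lower in knockdown were BNIP3L, PDK1, ENO1, ANKRD37 and EPAS1, 5 of 36 (13.9%), where 5.57% of all genes were lower at that level. The only member higher at that level was ADM, 2.78% of the 36 against 2.39% of all genes. After a second quantile normalization these counts were 2 lower and 2 higher, where 4.12% and 3.10% of all genes were. The log2 differences of the members ran from -0.20 for ENO1 to 0.19 for EGLN3, with a median of -0.039, beside -0.0094 over all genes. The 95% interval lay within 0.3 of no change for 32 of the 36 members and within 0.58 for all 36, limits chosen after the values were seen.

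**Figure D1:**
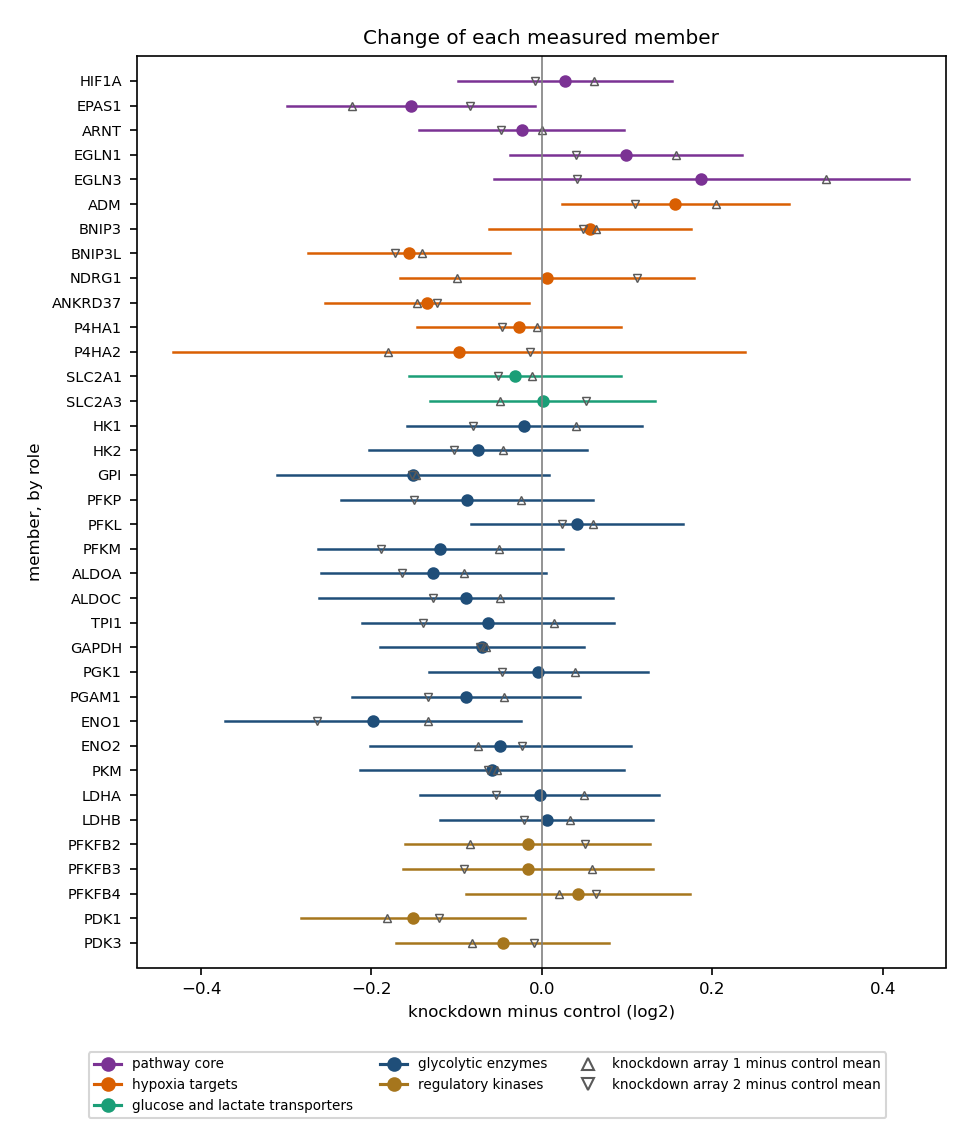
Log2 difference, knockdown minus control, of the 36 measured members (dot) with limma's 95% interval (line), coloured by role; triangles are the 2 knockdown arrays, each minus the control mean. Most glycolytic enzymes sit left of 0, with a lowest value of -0.20 for ENO1, and EGLN3 lies farthest right at 0.19.

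Of the 5 genes of the oxygen-sensing core, 2 were below and 3 above control. The HIF subunits were measured at widely different signals, which depend on the probes and give no order between genes. HIF1A, the alpha subunit found in nearly all cells, had log2 levels of 12.81 and 12.74 in knockdown and 12.73 and 12.77 in control cells. The groups overlapped, and the difference was 0.027 with a 95% interval from -0.098 to 0.15. EPAS1, the alpha subunit known as HIF-2alpha and prominent in sympathetic neuroblasts, had log2 levels of 9.39 and 9.53 in knockdown and 9.64 and 9.59 in control cells. Both knockdown arrays lay below both control arrays, at a difference of -0.15 ± 0.063 (SE; limma, unadjusted p = 0.041, adjusted p = 0.63). Without knockdown replicate 1 the EPAS1 difference was -0.084, and without knockdown replicate 2 it was -0.22. Its other 2 probe sets, with control means of 6.15 and 5.89 that lie below the array median, differed by 0.0042 and 0.015. ARNT, the shared beta subunit, had 7 probe sets, of which 6 were below control, and the brightest differed by -0.024.

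Both prolyl hydroxylases were above control at every probe set, without passing the test. EGLN1, the main oxygen sensor of the family, had log2 levels of 10.55 and 10.43 in knockdown and 10.39 and 10.39 in control cells, a difference of 0.099 ± 0.059 (SE). Without knockdown replicate 1 it was 0.040 and without knockdown replicate 2 it was 0.157. All 4 of its probe sets were above control, by 0.050 to 0.16, and none passed (limma, adjusted p = 0.66 at the lowest). EGLN3, itself a HIF target, had log2 levels of 7.54 and 7.25 in knockdown and 7.31 and 7.10 in control cells. Its groups overlapped, with replicate 1 the higher array in each, and the difference was 0.19 with a 95% interval from -0.056 to 0.43. Without knockdown replicate 2 the EGLN3 difference was 0.33 and passed (limma, adjusted p = 0.030), in a fit that called 1026 probe sets and took the lone remaining knockdown array to vary like the controls. Without knockdown replicate 1 it was 0.041 (limma, adjusted p = 0.96), the lowest value with 1 array left out, and without control replicate 2 it was 0.078.

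Hypoxia-induced targets did not share a direction. Of 7 measured, 4 were below and 3 above control, with a median log2 difference of -0.027. BNIP3L, a mitochondrial receptor for mitophagy, had the smallest p of all members, with log2 levels of 11.27 and 11.24 in knockdown and 11.41 and 11.42 in control cells. The groups were apart and each pair was tight, at a difference of -0.16 ± 0.051 (SE; limma, unadjusted p = 0.016, adjusted p = 0.60). Its second probe set differed by -0.039 with overlapping arrays. BNIP3, the related mitophagy receptor whose promoter cluster is printed above, stood at 11.35 and 11.33 against 11.27 and 11.30. That is a log2 difference of 0.056 ± 0.051 (SE), and its other probe set was at -0.040.

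ADM, which encodes the vasodilator peptide adrenomedullin, had log2 levels of 7.67 and 7.57 in knockdown and 7.43 and 7.49 in control cells. The groups were apart at a difference of 0.16 ± 0.058 (SE; limma, unadjusted p = 0.027, adjusted p = 0.61), from 1 probe set. ANKRD37, an ankyrin-repeat gene used in hypoxia signatures, gave opposite values at its 2 probe sets. The brighter one read 8.22 and 8.25 against 8.35 and 8.39, a log2 difference of -0.13. The dimmer one, of the class whose probes can bind other transcripts, read 6.38 and 6.30 against 6.16 and 6.22, a difference of 0.15. Each was at an unadjusted limma p under 0.05, so the sign for ANKRD37 rests on the choice of probe set.

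The remaining targets lay close to control or varied between arrays. NDRG1, a growth and differentiation gene that is strongly hypoxia-induced in many cells, read 7.51 and 7.72 against 7.58 and 7.63, a log2 difference of 0.0058. P4HA1 and P4HA2 encode the catalytic subunits of collagen prolyl hydroxylase, which prepares collagen for secretion. P4HA1 read 10.57 and 10.52 against 10.56 and 10.58, a difference of -0.027. P4HA2 read 9.03 and 9.20 against 8.96 and 9.47, and its control arrays enclosed the knockdown arrays. Its interval was the widest of all members, from -0.43 to 0.24.

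**Figure D2:**
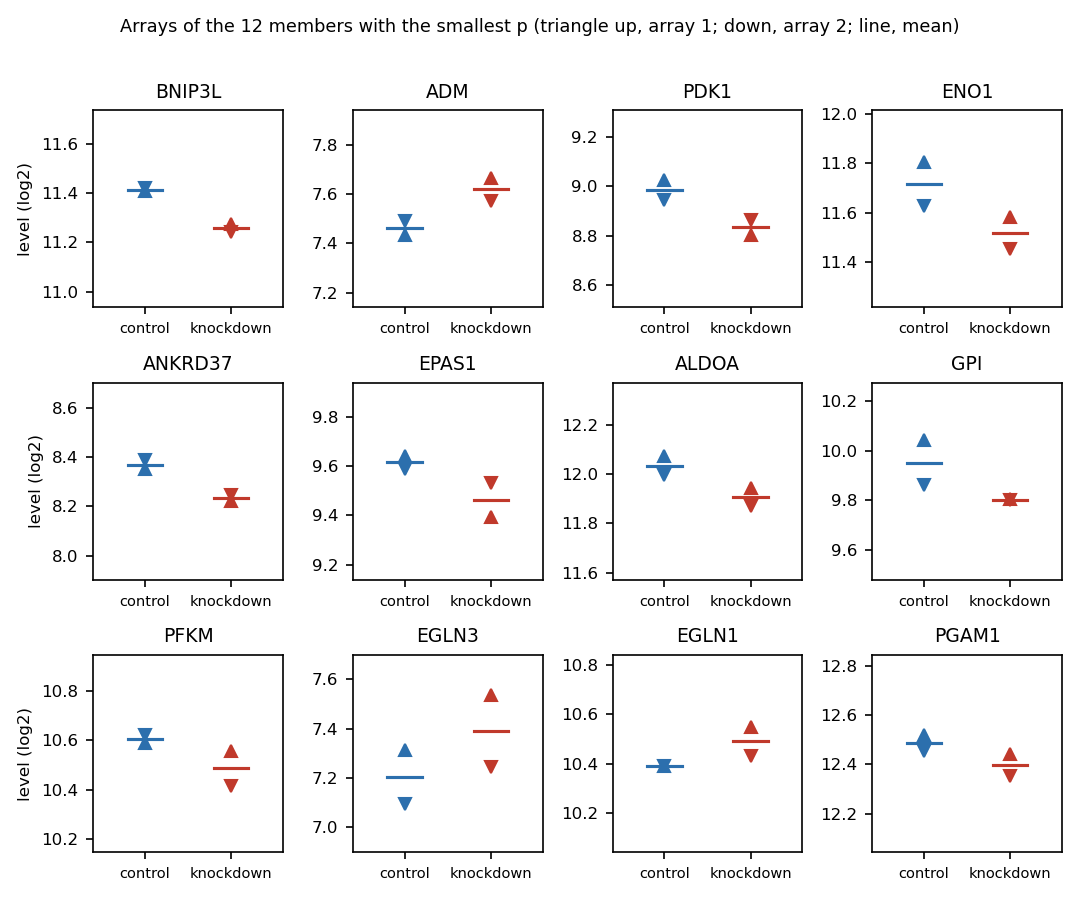
Log2 level on each of the 4 arrays for the 12 members with the smallest p, control in blue and knockdown in red; every panel spans 0.8 on the log2 scale and short lines are group means of 2 arrays. The arrays of BNIP3L and ANKRD37 form tight, separate pairs, those of ADM are apart but wider, and those of EGLN3 overlap between groups.

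Of the glucose transporters, SLC2A1, the basal carrier of most cells, read 8.02 and 7.98 in knockdown and 8.004 and 8.06 in control cells on the log2 scale. The difference was -0.032 at this probe set and 0.047 at the other. SLC2A3, the high-affinity carrier of neurons, had signals below the array median at all 3 probe sets, with control means of 6.18, 5.75 and 5.72. Its brightest probe set read 6.13 and 6.23 against 6.19 and 6.16. A change of this transcript may not be visible at such signals.

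Glycolytic enzymes were mostly slightly below control. Of 17 measured, 15 were below and 2 above, with a median log2 difference of -0.070 and 0 past the threshold. Of all genes, 55.6% were below control. Both knockdown arrays lay below both control arrays for 7 of the 17, and above for 0. Over all genes this separation was seen in 24.2% for lower and 14.3% for higher, and over the 36 members in 11 (30.6%) and 3 (8.33%). The values of the list depend on the arrays: the median deviation from the control mean was -0.047 for the first knockdown array and -0.10 for the second, while the control arrays stood at 0.033 and -0.033. On the first knockdown array it thus lay little below the lower control array.

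Genes of high signal as a whole were shifted in the same direction. Among the 7886 genes above a mean log2 level of 7.95, the 75th percentile over all probe sets, 66.5% were below control with a median log2 difference of -0.031. Of the members above that level, 25 of 29 were below, with a median of -0.063. The arrays of the groups were apart and lower for 37.9% of these 29 and 34.5% of the 7886 genes, and apart and higher for 6.90% and 8.36%. At an unadjusted p under 0.05, 17.2% of these 29 and 9.76% of the 7886 genes were lower. In signal bins of about 1978 genes, the median was 0.0045 for the dimmest and -0.013 for the brightest, and reached -0.044 at a control level near 9.13. The part of this signal-dependent shift in the members' values was not tested.

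**Figure D3:**
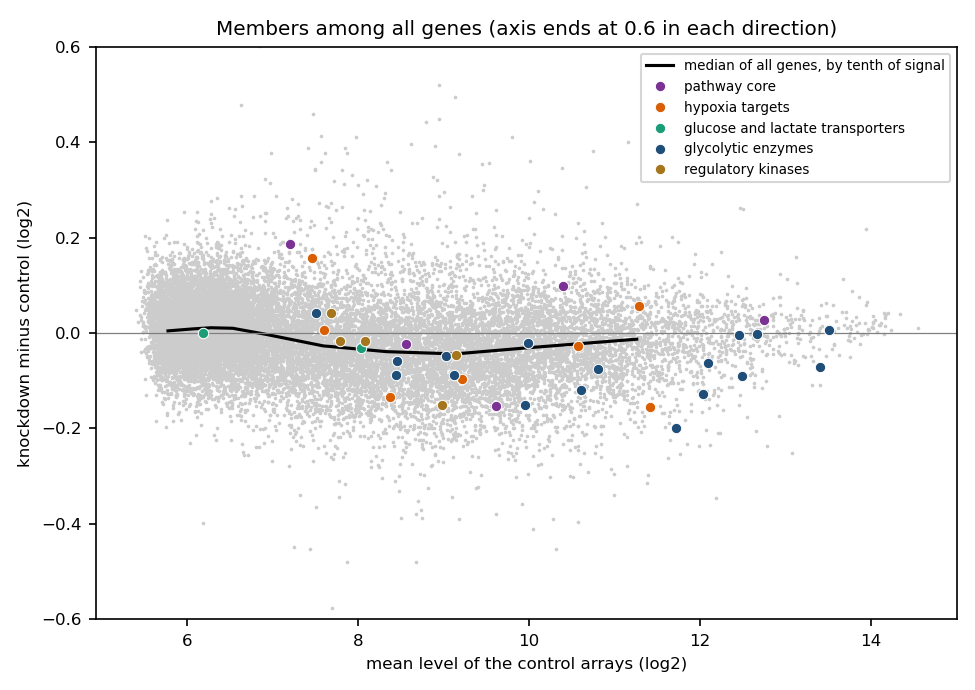
Mean log2 level of the control arrays (x axis) against the log2 difference, knockdown minus control (y axis), for all 19775 genes in grey and the 36 members in colour by role; the black line is the median of all genes in 10 signal bins, and the y axis leaves out genes beyond 0.6. The line lies below 0 from a level of 6.93 upwards, and most members lie in that range.

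In the order of the pathway, the hexokinases HK1 and HK2, which trap glucose in the cell, differed by -0.021 and -0.075 on the log2 scale. HK1 read 10.03 and 9.91 against 10.005 and 9.97. HK2 read 10.76 and 10.70 against 10.77 and 10.84, and all 3 of its probe sets were below control, at -0.075, -0.070 and -0.052. Glucose-6-phosphate isomerase, GPI, read 9.80 and 9.80 in knockdown and 10.05 and 9.86 in control cells. The difference of -0.15 ± 0.069 (SE; limma, adjusted p = 0.65) came with a wide control pair, and without control replicate 1 it was -0.058.

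Phosphofructokinase, the committed step, has a muscle, a liver and a platelet subunit. PFKM, the muscle subunit, read 10.56 and 10.42 against 10.59 and 10.62, apart at a log2 difference of -0.12 with a 95% interval from -0.26 to 0.025. Without knockdown replicate 2 it was -0.050 and without knockdown replicate 1 it was -0.19. PFKP, the platelet subunit, differed by -0.087, and its dim second probe set by 0.043. PFKL, the liver subunit, read 7.56 and 7.53 against 7.47 and 7.53, overlapping at 0.042. The aldolases, which cleave the sugar, were both below control. ALDOA read 11.94 and 11.87 against 12.07 and 11.997, at -0.13 ± 0.057 (SE; limma, adjusted p = 0.64), and its 3 probe sets were all below. ALDOC, the brain form, read 8.39 and 8.31 against 8.54 and 8.34 at 1 probe set, overlapping at -0.089.

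The later steps also lay close to control, apart from ENO1. TPI1 differed by -0.063 and PGAM1 by -0.089. PGAM1, which moves the phosphate of glycerate, read 12.44 and 12.35 against 12.52 and 12.46, so its groups were narrowly apart. GAPDH, often used as a reference gene, was below control at all 3 probe sets, by -0.076 to -0.068. Its brightest read 13.34 and 13.33 against 13.38 and 13.43. The control probe sets for GAPDH on the same arrays, which sample the 3′ end, the middle and the 5′ end, differed by -0.035, -0.11 and -0.088. The 3′ minus 5′ gap, a measure of RNA integrity, was 0.56 and 0.67 in knockdown and 0.60 and 0.53 in control cells, overlapping between groups. For ACTB the gap was larger, at 2.00 and 2.18 in knockdown and 2.14 and 1.99 in control cells, also overlapping.

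PGK1, the first enzyme of the pathway to make ATP, had log2 levels of 12.49 and 12.41 in knockdown and 12.47 and 12.44 in control cells, a difference of -0.0044. Its 6 probe sets disagreed, from -0.16 to 0.072. The lowest, with a control mean of 6.60 near the array median, had the smallest unadjusted p of all member probe sets (limma, 0.012; adjusted p = 0.60). ENO1, the ubiquitous enolase, had the largest difference below control among the members. It read 11.58 and 11.45 against 11.80 and 11.63, apart at -0.20 ± 0.075 (SE; limma, unadjusted p = 0.030, adjusted p = 0.62). Of its 4 probe sets 3 were below control, and 1 was above by 0.093. With 1 array left out the ENO1 difference ran from -0.29 to -0.11. ENO2, the neuronal enolase, read 8.95 and 9.004 against 9.11 and 8.95, overlapping at -0.049.

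At the end of the pathway, PKM, pyruvate kinase, differed by -0.058 at the brighter of its 2 probe sets, and the lactate dehydrogenase subunits lay on control. LDHA, the lactate-forming subunit whose promoter is printed above, read 12.72 and 12.61 against 12.71 and 12.63. LDHB, the subunit that favours pyruvate, read 13.55 and 13.49 against 13.49 and 13.54. Their log2 differences were -0.0025, with a 95% interval from -0.14 to 0.14, and 0.0057, with an interval from -0.12 to 0.13. Processed pseudogenes with near-identical sequence exist for several glycolytic genes, GAPDH and PGK1 among them. Of the 87 member probe sets, 15 are of the class that can bind other transcripts. For ALDOA, GAPDH and LDHB all probe sets are of that class. A further 28 are of a class whose probes several transcripts may share, among them the brightest probe sets of ENO1, PGK1 and LDHA.

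The 5 regulatory kinases, of 2 families, had 4 values below control and 1 above. The PFKFB enzymes make or remove the sugar bisphosphate that stimulates phosphofructokinase. PFKFB3 read 8.14 and 7.99 in knockdown and 8.08 and 8.07 in control cells, PFKFB2 differed by -0.017 and PFKFB4 by 0.042, and the arrays of each overlapped. The pyruvate dehydrogenase kinases switch off pyruvate dehydrogenase, which starts the oxidation of pyruvate in mitochondria. PDK1, the HIF-induced form, read 8.80 and 8.86 against 9.03 and 8.94, apart at a log2 difference of -0.15 ± 0.057 (SE; limma, unadjusted p = 0.030, adjusted p = 0.62). Its 2 dimmer probe sets differed by 0.0092 and -0.096. PDK3 read 9.07 and 9.14 against 9.14 and 9.16, at -0.046.

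**Figure D4:**
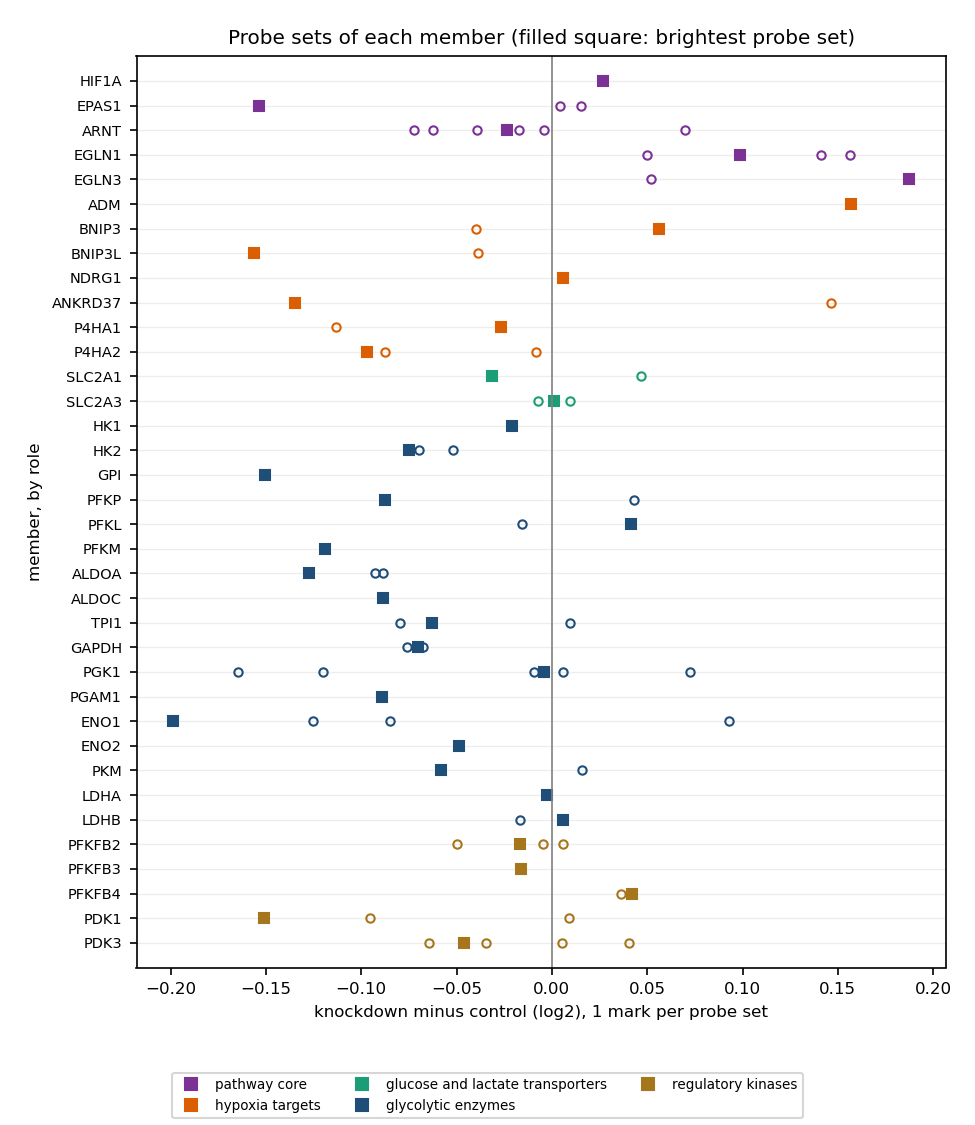
Log2 difference, knockdown minus control, of each of the 87 member probe sets; the filled square is the brightest probe set of a gene and open circles are its others. All probe sets of EGLN1, EGLN3 and PFKFB4 lie right of 0 and those of HK2, ALDOA, GAPDH, BNIP3L, P4HA1 and P4HA2 left of 0, while the 6 of PGK1 spread from -0.16 to 0.072.

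Probe sets of the same member often disagreed in sign, and the same count over all genes was not made. Some that disagreed with the brightest were dim, such as that of PFKP at a control mean of 5.97. Others were bright, such as those of BNIP3 (9.57) and LDHB (13.33). Of 25 members with more than 1 probe set, 9 had all of them on 1 side of control, 6 below and 3 above, and 16 disagreed in sign. Over the 87 probe sets, 56 were below control (64.4%, against 50% of all probe sets), with a median log2 difference of -0.021. At an unadjusted p under 0.05, 7 were lower and 2 higher (8.05% and 2.30%), where 4.12% and 3.72% of all probe sets were.

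Isoforms of a step were also set against each other within each array, which removes shifts common to both probe sets. BNIP3 minus BNIP3L was 0.075 and 0.089 in knockdown and -0.14 and -0.12 in control cells, a log2 change of 0.21 and the largest of the 18 pairs. The arrays of the groups did not overlap for this pair. The change rests on the brightest probe sets, since the other probe sets of BNIP3 and BNIP3L differed by nearly the same, -0.040 and -0.039. PFKL minus PFKM changed by 0.16, HIF1A minus EPAS1 by 0.18 and ENO1 minus ENO2 by -0.15, each without overlap. Also without overlap were HIF1A minus ARNT at 0.051 and EPAS1 minus ARNT at -0.13. PDK1 minus PDK3, at -0.11, and PFKP minus PFKL, at -0.13, did not overlap either. These values too are from the brightest probe sets. The other probe sets differed by 0.0042 and 0.015 for EPAS1, -0.016 for PFKL and -0.085, 0.093 and -0.13 for ENO1. LDHA minus LDHB changed by -0.0082, HK1 minus HK2 by 0.054, SLC2A1 minus SLC2A3 by -0.033 and ALDOA minus ALDOC by -0.039, each with overlap. With 2 arrays a group, the exact permutation test (two-sided) cannot give a p below 0.333, which is the value it gave for each pair without overlap, so no pair could pass. Adjustment over the 18 pairs could only raise it.

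**Figure D5:**
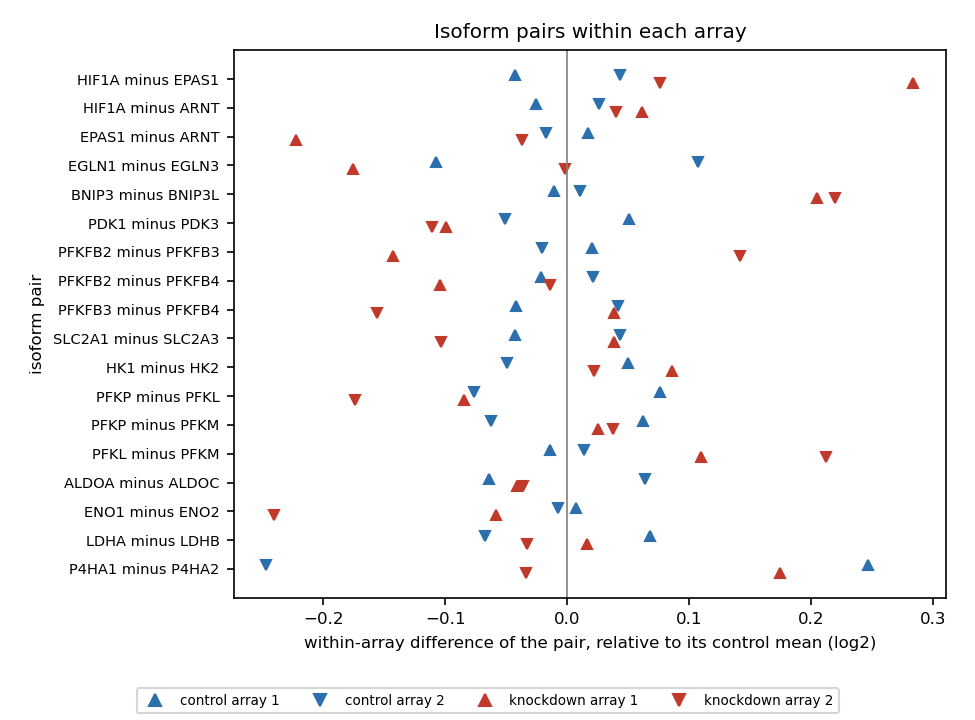
Difference in log2 level between the 2 genes of each isoform pair within an array, drawn relative to the pair's control mean; blue marks are control and red marks knockdown arrays. For BNIP3 minus BNIP3L the knockdown arrays lie together on the right, 0.21 above the control mean on average, at the brightest probe sets only, whereas for LDHA minus LDHB the groups are mixed.

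Other genes of the same pathways did not pass the test either. Of 29 measured hypoxia pathway genes outside the group, 19 were below control, with a median log2 difference of -0.036. At an unadjusted p under 0.05, 4 were lower (13.8%, against 5.57% of all genes) and 0 higher (against 2.39%), and 0 passed over all probe sets (limma). EP300, a histone acetyltransferase that HIF recruits, read 8.39 and 8.42 against 8.65 and 8.55, at -0.20 (limma, adjusted p = 0.60). ARNT2, the neuronal relative of ARNT, differed by -0.17 and HIF1AN, the asparagine hydroxylase that blunts HIF activity, by -0.15. VEGFA, the angiogenic factor, was picked after its values were seen: it read 10.26 and 10.65 against 10.58 and 10.75, overlapping at -0.21, and its 4 probe sets were all below control.

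Of 27 other glucose metabolism genes, 18 were below control, with a median of -0.027 and 0 past the threshold. At an unadjusted p under 0.05, 0 were lower (against 5.57% of all genes) and 2 higher (7.41%, against 2.39%). FBP1, a gluconeogenic enzyme, differed by 0.13, and LDHAL6B, a lactate dehydrogenase relative with a signal below the array median, by 0.15. PGD, of the pentose phosphate pathway, differed by -0.15 (limma, adjusted p = 0.64).

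The core in the promoter was set beside the differences as a description, since few members lack it. The median log2 difference was -0.048 over 28 measured members with at least 1 core, of which 21 were below control, and -0.057 over 4 with an entry and no core, of which 3 were below. The printed promoters belong to genes at 0.056 (BNIP3), -0.089 (ALDOC), -0.0025 (LDHA) and -0.0044 (PGK1).

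Lists for stress and for cell types are given beside these values, by the brightest probe set of each gene. Over all genes 55.6% were below control. Integrated stress response genes, which include the hypoxia-responsive DDIT4 (-0.24) and STC2 (-0.35, also in the hypoxia list above) and the glutathione-degrading enzyme CHAC1 (-0.38), were below control in 15 of 15 cases. Their mean log2 level was 9.95 and 10.22 in knockdown and 10.17 and 10.43 in control cells. Replicate 2 was the higher array in each group, and the groups overlapped. ASNS, ATF3 and SLC7A11 of this list each also had 1 probe set above control. Mesenchymal and fibroblast markers were above control in 10 of 12 cases, with a mean level of 9.71 and 9.42 against 9.40 and 9.35. COL3A1 (0.44), SPARC (0.26) and SNAI2 (0.34) had the smallest p, and DCN, picked after its values were seen, had the largest difference, at 0.50. DCN read 10.055 and 9.19 in knockdown and 9.17 and 9.09 in control cells. SNAI2 read 8.11 and 7.55 against 7.46 and 7.51. For both genes most of the difference came from knockdown replicate 1. The same held for the list: its median deviation from the control mean was 0.299 for knockdown replicate 1 and 0.058 for knockdown replicate 2. The control arrays stood at 0.019 and -0.019. Neuroblastoma markers were below in 7 of 9 cases, at 10.78 and 10.83 against 10.90 and 10.91. CHGA (-0.29), DBH (-0.35) and CHGB (-0.20) had the smallest p, and DBH had 1 of its 2 probe sets above control. PHOX2A (-0.086), ISL1 (-0.045), HAND2 (-0.045) and GATA3 (-0.014) lay closer to control. STMN2 (0.0058) and the dim TH (0.115) were above, and the arrays of TH did not overlap between groups. Schwann cell markers lay near the array median, at 6.52 and 6.54 against 6.495 and 6.502, 3 of 4 above control, with S100B (0.071), FOXD3 (0.056) and SOX10 (-0.0073). No gene of these lists passed over all probe sets, and their part in the members' values was not tested. Less RNA per cell and fewer cells of a type cannot be told apart in such bulk samples.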

How the data were processed

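Biotin-labelled RNA from 4 samples was hybridised to oligonucleotide arrays, 1 per sample, from 100 ng of total RNA per the labels' protocols. The authors deposited log2 values, 1 per probe set, and the submitters' processing notes name RMA and R 3.0.1 without settings. The arrays' medians differ by little, so changes shared by most genes cannot be seen. No detection calls, scan dates or batches were used, and the number of arrays limits the precision.

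Probe sets were named through the platform annotation (41091 of 54613 with 1 gene, 1801 with several, 11721 not listed; 62 control probe sets left out of the tests). All 87 member probe sets matched a current gene identifier with the same symbol. Each gene was represented by its brightest probe set, by the mean of all arrays. The groups were tested with limma 3.58.1 in R 4.3.3 (lmFit, eBayes, two-sided, Benjamini-Hochberg over all 54613 probe sets, threshold 0.05), tested on simulated data. No list was tested as a set. All 36 measured members are named, with every array for at least the 12 of smallest p, and the 3 genes of smallest p in other lists. The members and lists were chosen with earlier results of these data known. Alternatives were a second quantile normalization, median centring, a filter on dim probe sets, a trended robust variance, a replicate block, other choices of probe set and leaving out each array. Figures were drawn with matplotlib 3.10.9.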

Additional observations from a re-analysis of the deposited data

How the results depend on the processing

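The differences are small against what 2 arrays a group can show: the median 95% interval of a member reached 0.13 to each side. No pairing is stated in the labels, and deviations of equal replicate numbers correlated at 0.051 over all probe sets, from 2 pairs. That value takes in dim probe sets and cannot decide whether samples were paired. In the stress list above, replicate 2 had the higher mean in both groups. With the replicate number as a block, TSPAN8 was at -1.27 with an adjusted p of 0.16 (limma), and 0 probe sets passed. At an unadjusted p under 0.05 that fit had 3 lower members and 2 higher ones, where 4.93% and 2.02% of all genes were. Within numbers 1 and 2 the members' median was -0.030 and -0.051. Outside the block, TSPAN8 kept its direction and call under each alternative run, and no member passed in any fit except EGLN3 without knockdown replicate 2. Leaving out 1 array in turn gave 1 to 1026 probe sets past the threshold (1026 without knockdown replicate 2, 25 without knockdown replicate 1, 1 without either control array), a members' median from -0.053 to -0.018, lower members at an unadjusted p under 0.05 numbering 1 to 4 and higher ones 0 to 3, and TSPAN8 from -1.32 to -1.22. The members' median was -0.015 after a second quantile normalization, -0.053 with arrays centred on their medians and -0.021 as the median over a gene's probe sets. At an unadjusted p under 0.05 the members below and above control numbered 2 and 2 after the second quantile normalization (4.12% and 3.10% of all genes), 3 and 2 with the probe set of largest spread (7.11% and 5.36%) and 7 and 1 with arrays centred on their medians (7.68% and 1.64%). The cause was not tested.

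For 15 of 36 members the sign held under every alternative run. It turned in 21 cases outside leave-one-out and 22 with an array left out, none larger than 0.158 and none past the threshold. After the second quantile normalization ARNT was at 0.0047, SLC2A3 at -0.013, HK1 at 0.00022 and PFKFB2 at 0.0012. With arrays centred on their medians NDRG1 was at -0.0080, SLC2A3 at -0.013 and LDHB at -0.0081. As the median over probe sets EPAS1 was at 0.0042, ANKRD37 at 0.0059, SLC2A1 at 0.0076 and LDHB at -0.0056. With the probe set of largest spread ARNT was at 0.070, BNIP3 at -0.040, ANKRD37 at 0.15, SLC2A1 at 0.047, SLC2A3 at -0.0073, LDHB at -0.017 and PDK3 at 0.040. Without probe sets that several transcripts may share SLC2A1 was at 0.047, TPI1 at 0.0097 and PGK1 at 0.0056, and 24 members remained. With 1 array left out the range was -0.0078 to 0.062 for HIF1A, -0.048 to 6.2e-05 for ARNT, -0.10 to 0.11 for NDRG1, -0.35 to 0.16 for P4HA2, -0.050 to 0.052 for SLC2A3, -0.081 to 0.039 for HK1, -0.19 to 0.012 for ALDOC, -0.14 to 0.014 for TPI1, -0.048 to 0.039 for PGK1, -0.13 to 0.032 for ENO2, -0.15 to 0.029 for PKM, -0.054 to 0.049 for LDHA, -0.021 to 0.033 for LDHB, -0.084 to 0.050 for PFKFB2, -0.092 to 0.059 for PFKFB3 and -0.0049 to 0.089 for PFKFB4.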

Other observations

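The 2 control arrays differed by 0.052 at the median member and the 2 knockdown arrays by 0.076 (absolute log2 difference), beside 0.057 and 0.064 over all genes. P4HA2 had the widest gap, with control replicate 1 minus control replicate 2 at -0.51 and knockdown replicate 1 minus knockdown replicate 2 at -0.17. EGLN3 was next, at 0.22 and 0.29, and then NDRG1, at -0.045 and -0.21. For these 3 genes the sign of the gap was the same in both groups. The gaps of ENO1 were 0.18 and 0.13, those of TPI1 0.020 and 0.15 and those of GPI 0.19 and 0.0047.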
